A study of Mus musculus with 4 samples.

Results

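Untreated bone marrow-derived macrophages lacking both Hes1 and Hey1 (DKO) were compared with untreated wild-type (WT) macrophages, both of the C57BL/6 strain background. The comparison uses 2 of the 4 arrays of the study, 1 for each genotype. Every probe set annotated to a single gene was read, and a gene took the value of its brightest probe set. Of 18193 genes measured, 11379 were above a floor of 52.9 intensity units on at least 1 of the 2 arrays, and the 8664 with a mean of at least 200 units over both arrays were counted. The cells had been grown from bone marrow for 5 days with 10% serum and 10% L929 supernatant, and received no lipopolysaccharide (LPS). The other 2 arrays hold WT and DKO cells given 2 ng/ml LPS for 3 h, and are used here as a separate reading of the same genotypes.

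Hes1 and Hey1 encode basic helix-loop-helix repressors that are switched on by Notch signalling and that also dampen inflammatory genes in macrophages. L929 supernatant supplies macrophage colony-stimulating factor, which drives marrow precursors to become macrophages. Untreated cells have not met a microbial signal, so this comparison asks what the loss of both repressors leaves different before stimulation. Macrophages without stimulation clear dead cells and debris through scavenger and complement receptors, and genes of those tasks make up the first gene lists below.

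Each group was 1 array, so no difference below has a replicate check, and neither a test nor an error can be given. The number of arrays limits the precision. How either gene was deleted, how many animals gave marrow, and whether treated and untreated cells came from the same animals are not given in the sources used here. RNA of a whole culture cannot tell fewer cells of a type from less RNA per cell. The targeted genes were dim: the probe set of Hes1 read 45.5 units in WT and 2.14 in DKO cells, and that of Hey1 57.2 and 9.17. Values under the floor have no order, so these readings check the genotype labels only weakly.

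The macrophage label was borne out by its markers on both arrays. All 26 measured macrophage identity genes were above the floor, with a summed level of 254693 units in WT and 304931 in DKO cells. Lymphoid markers summed to 571 and 483 units, with 12 of 15 under the floor on both arrays, and stromal markers to 456 and 421 units, with 11 of 12 under it. Dendritic cell markers summed to 2174 and 2606 units with 9 of 12 under the floor, and markers of erythroid cells, mast cells and megakaryocytes to 298 and 272 units with 8 of 10 under it. Progenitor and granulocyte markers were the list with the largest ratio between its sums, at 8080 units in WT against 4355 in DKO cells, and are described with the lower genes.

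Dim probe sets were brighter on the untreated WT array, with a median of 59.1 units over all probe sets against 51.0 on the DKO array. The median log2 difference, DKO minus WT, was -0.28 among probe sets with a mean under the floor, -0.11 between 100 and 200 units, -0.03 between 500 and 2000 units and 0.16 from 10000 units up. In the pair of arrays with LPS it lay between -0.03 and -0.01 at every brightness. For that reason counts rest on genes of at least 200 units, whose median difference was 0.01.

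Few of the counted genes differed by 2-fold or more. In DKO cells 23 genes (0.265% of the 8664) read at least 2-fold higher and 46 (0.531%) at least 2-fold lower. At 1.5-fold the counts were 137 higher (1.58%) and 200 lower (2.31%). By any amount 4407 of the 8664 were higher and 4257 lower. In the pair with LPS 41.3% of the same genes were higher and 58.6% lower. These are the shares against which the list counts below are read. The balance depended on the scaling. With array medians set equal, the median of the counted genes rose to 0.22, and 47 genes were higher and 17 lower. In that setting 73.4% of the genes past 2-fold were higher in DKO cells instead of 33.3%. After cyclic loess, which follows brightness, the counts were 23 and 37, with 22 of the higher and 36 of the lower genes shared. Just inside the 2-fold mark lay Siglec1, at 172 units in WT and 346 in DKO cells (2.02-fold higher), and Cyp4f18, at 349 and 175 (2.00-fold lower). Just outside lay Zbp1, at 461 and 897 (1.94-fold higher), and Spata6, at 1230 and 617 (1.99-fold lower).

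**Figure D1:**
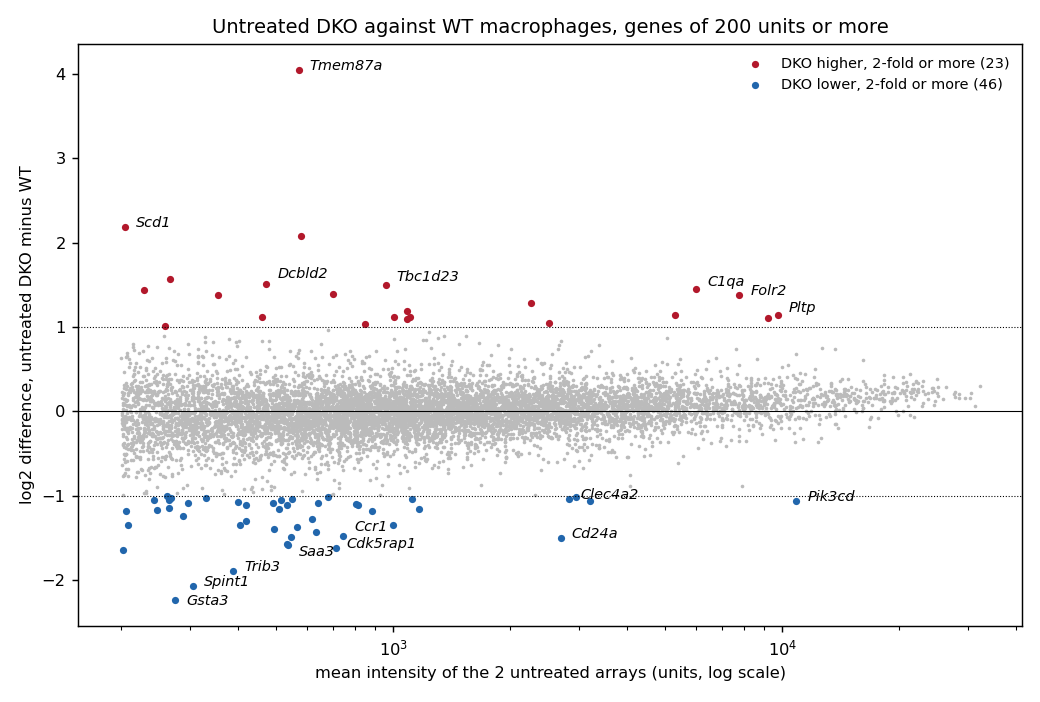
Each point is 1 of the 8664 counted genes, with the mean intensity of both untreated arrays on a log axis and the log2 difference, DKO minus WT, on the other. The 23 genes in red and 46 in blue lie past the dotted 2-fold lines, and the cloud widens toward dim genes.

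Genes typical of tissue-resident macrophages read higher in DKO cells. Of 19 counted members of this list 17 were higher, where 4407 of all 8664 counted genes were. Of the 17, 5 passed 2-fold and 10 passed 1.5-fold, and no member was 1.5-fold lower. The list median was 0.60 on the log2 scale (0.56 after loess), against 0.01 for all counted genes. The list was chosen with earlier results of these data known and holds C1qa and Folr2, so these values are a description only. The 5 genes past 2-fold were C1qa, Folr2, Cbr2, Pltp and Fcna.

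C1qa encodes a chain of C1q, the first component of the classical complement pathway, which also tags dying cells for uptake. Its level was 3237 units in WT and 8804 in DKO cells without LPS, and 3197 and 9145 with LPS. Both DKO arrays were therefore far above both WT arrays, and LPS made little difference in either genotype. The untreated difference was 2.72-fold. C1qc read 9441 against 15898 units (1.68-fold higher). The probe sets of C1qb were divided: the brightest read 12798 against 19442 units (1.52-fold higher) and a second 8464 against 12001 (1.42-fold higher), but another read 6872 against 4212 (1.63-fold lower). The direction of C1qb at rest is therefore unsettled. With LPS, C1qc read 11115 and 16614 units, and the 3 probe sets of C1qb 15431 and 20167, 6305 and 10136, and 2415 and 5622, with DKO above WT in each. The 3 genes are neighbours on chromosome 4.

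Folr2, a folate receptor and a surface marker of resident macrophages, read 4304 units in WT and 11222 in DKO cells, and 4930 and 10107 with LPS. The difference was 2.61-fold without LPS and 2.05-fold with it. Cbr2, a carbonyl reductase, was dimmer, at 197 and 513 units without LPS and 181 and 428 with LPS. Fcna, the pattern-recognition lectin ficolin A, read 697 and 1510 units, and 723 and 1205 with LPS. In all 3 genes both DKO arrays lay above both WT arrays.

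Below 2-fold in the same list were the mannose receptor gene Mrc1, at 1966 against 3380 units (1.72-fold), the apolipoprotein gene Apoe, at 5702 against 9505 (1.67-fold), and Gas6, a bridging ligand for dead-cell receptors, at 4295 against 6598 (1.54-fold). Maf, a transcription factor of these cells, read 4475 and 6112 units (1.37-fold) by its brightest probe set. Dimmer probe sets of Maf read 1984 and 3318 units (1.67-fold higher), 1725 and 3179 (1.84-fold) and 1272 and 2094 (1.65-fold). The faintest read 149 and 186 (1.24-fold) and, with WT under the floor, 50.5 and 108. The size of the Maf difference is therefore uncertain. The chemokine gene Pf4, at 4320 against 3964 units, and the prostaglandin dehydrogenase gene Hpgd, at 2806 against 2586, read slightly lower, and both turned to slightly higher (0.09 each on the log2 scale) with array medians set equal. Lyve1, Timd4, Vsig4 and Cd209f, further markers of resident macrophages, were under the floor on both arrays.

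The promoter windows of C1qb, C1qc and Folr2 are shown because these genes of the resident-type list read higher by their brightest probe sets; no window of C1qa was in the table used. They are the 250 bases before the annotated start (RefSeq, GRCm38.p6), 5′ to 3′ on the gene's strand, and capitals mark matches to motifs named after them. The windows are chr4:136886201-136886450 (minus strand) for C1qb, chr4:136892915-136893164 (minus) for C1qc, and chr7:101857191-101857440 (minus) for the first of 2 windows of Folr2. The second window of Folr2 held none of the motifs and is not shown.
C1qb: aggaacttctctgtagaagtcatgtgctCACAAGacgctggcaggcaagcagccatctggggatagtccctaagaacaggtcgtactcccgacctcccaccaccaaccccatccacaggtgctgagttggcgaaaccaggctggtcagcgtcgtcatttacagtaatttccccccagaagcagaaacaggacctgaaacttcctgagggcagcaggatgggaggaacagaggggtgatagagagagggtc
C1qc: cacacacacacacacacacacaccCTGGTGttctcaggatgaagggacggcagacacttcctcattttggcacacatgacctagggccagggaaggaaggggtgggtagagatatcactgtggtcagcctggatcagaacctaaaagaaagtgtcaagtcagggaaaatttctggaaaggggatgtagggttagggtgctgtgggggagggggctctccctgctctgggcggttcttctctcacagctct
Folr2: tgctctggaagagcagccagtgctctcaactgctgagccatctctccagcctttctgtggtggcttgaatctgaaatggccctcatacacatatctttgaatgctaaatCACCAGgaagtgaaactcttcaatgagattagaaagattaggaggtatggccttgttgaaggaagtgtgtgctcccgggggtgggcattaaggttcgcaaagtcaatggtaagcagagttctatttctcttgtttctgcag
Each of the 3 windows shown holds 1 N-box and no other motif searched. The N-box (CACNAG) and the class C site (CACGCG) are described as sites of Hes proteins, and the E-box (CACGTG) is a further site of this protein family. Both strands were searched, and no stretch of 6 letters can match more than 1 of the 3. The match is CACAAG starting 222 bases before the start of C1qb, CTGGTG (the opposite strand's reading) at 226 bases for C1qc, and CACCAG at 141 bases for Folr2.

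The N-box letters are common. They occurred in 36.7% of 32851 windows of the same length, and in 39.5% of the 7178 counted genes with a window. Among genes 2-fold higher in DKO cells with a window they occurred in 9 of 19, and among those 2-fold lower in 12 of 36. The E-box was in 6.02% of windows, in 10.6% of counted genes, in 0 of the 19 higher and in 1 of the 36 lower genes. The class C site was in 7.62% of windows, in 17.5% of counted genes, in 3 of the 19 and in 5 of the 36. A match describes letters and not binding, and these shares describe the lists only.

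Complement genes as a list were also higher, with 10 of 12 counted members above WT and a median of 0.33 (0.26 after loess). Only the 3 C1q chains passed 1.5-fold by their brightest probe sets, C1qb with the contrary reading given above. Properdin, encoded by Cfp, read 4576 and 6393 units, the anaphylatoxin receptor gene C3ar1 14144 and 18084, and the integrin gene Itgax 309 and 265. C1q chains stand in both of these lists.

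Lipid genes held some of the largest differences. Scd1, a desaturase that makes monounsaturated fatty acids, read 73.5 units in WT and 335 in DKO cells, and 53.1 and 272 with LPS. Scd2, a close relative, read 675 and 1059 units (1.57-fold higher), and 334 and 430 with LPS. Both genes had 2 probe sets past 1.5-fold, although the dimmer one of Scd1 read only 48.6 and 79.8 units, with WT under the floor. The other counted genes of fatty acid synthesis stayed within 1.5-fold by their brightest probe sets. Fasn read 605 and 557 units (0.09 on the log2 scale with array medians set equal), Acaca 215 and 276 and Acly 4254 and 4919. The median of the 15 members was 0.08.

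Genes of lipid efflux, many of them targets of the nuclear receptor LXR, read higher in 11 of 15 counted members, with a median of 0.30 (0.21 after loess). Pltp, which transfers phospholipids between lipoproteins, was the only one past 2-fold, at 6088 units in WT and 13416 in DKO cells (2.20-fold), and 5357 and 12920 with LPS. A second probe set of Pltp read 3509 and 8557 units (2.44-fold). The cholesterol exporter gene Abca1 read 1981 and 3317 units (1.67-fold), and 5911 and 8868 with LPS, while Abcg1 read 5300 and 6545. Nr1h3, which encodes LXR alpha itself, read 242 and 187 units. Cholesterol synthesis genes had 9 members higher and 11 lower of 20, with none past 1.5-fold by its brightest probe set and a median of -0.04. A dimmer probe set of Idi1 read 769 and 447 units (1.72-fold lower). Dimmer probe sets of Hsd17b7 were divided, at 320 and 154 units (2.08-fold lower) and 258 and 278.

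Surface receptors for particles and glycans split. Of 22 counted phagocytic and scavenger receptors 17 were higher, with a median of 0.26 (0.20 after loess), and 2 were past 2-fold in each direction. Higher were Cd5l, a secreted scavenger protein of macrophages, at 1646 and 3396 units (2.06-fold), and Siglec1, a sialic acid receptor, as given above. The beta-glucan receptor gene Clec7a was 1.83-fold higher, at 3574 and 6530 units, and the Fc receptor gene Fcgr1 1.61-fold higher, at 1962 and 3151. With LPS, Clec7a read 3617 and 3963, closer together.

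The 2 lower receptors both lie on chromosome 6. Clec4a2, an inhibitory C-type lectin, read 3818 units in WT and 1859 in DKO cells, and 3593 and 1813 with LPS. Clec4n, the receptor dectin-2, read 741 and 362 units, and 982 and 489 with LPS. Each was about as far apart with LPS as without it, and each had a second probe set more than 2-fold lower: 309 and 135 units for Clec4a2, and 468 and 204 for Clec4n.

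The largest single difference was in Tmem87a, a membrane protein of the Golgi, on chromosome 2. It read 65.5 units in WT and 1078 in DKO cells (16.5-fold higher), and 87.5 and 865 with LPS, so both WT arrays lay close to the floor. Other genes far higher in DKO cells had varied roles. Dcbld2, a membrane receptor, read 245 and 699 units (2.86-fold), and 1281 and 4507 with LPS. Tbc1d23, a protein of endosome-to-Golgi traffic, read 501 and 1415 units (2.82-fold), and 677 and 1685 with LPS, though 1 of its 3 probe sets read 306 and 350 without LPS. Ndrg2 read 123 and 334 units (2.70-fold), and 117 and 278 with LPS. In each of the 4 genes both DKO arrays lay above the WT array of the same treatment.

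Immune receptor and signalling genes were also among the 23. Rasgrp3, an exchange factor that activates Ras, read 1315 and 3200 units (2.43-fold higher), and 366 and 710 with LPS. Fcrls, an Fc receptor-like protein of macrophages and microglia, read 662 and 1509 units (2.28-fold), and 601 and 1244 with LPS. Ly86, the partner protein of the Toll-like receptor relative CD180, read 3317 and 7303 units (2.20-fold), and 3386 and 5815 with LPS. The untreated difference was kept in direction with LPS in all 3.

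The histone genes H1f2 (5833 and 12541 units) and H2ac19 (694 and 1479) also passed 2-fold. Histone genes have near-identical copies whose transcripts these probe sets may not separate, so both are uncertain. The 2 further probe sets of H1f2 read 3805 and 5674 units, short of 1.5-fold, and 54.5 and 40.8, near the floor. Also past 2-fold were Plxdc2, a plexin-domain membrane protein, at 555 and 1137 units, the orphan receptor gene Gpr176, at 290 and 631, Ocel1, at 635 and 1373, and the unnamed transcript 2500002B13Rik, at 222 and 935. The last, which lies outside the rule for named genes, read 584 and 4385 with LPS.

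Macrophage identity genes were higher in 24 of 26 members, with a median of 0.26. The reference genes, chosen for steady levels, stood at 0.15 with 11 of 13 higher. After loess the medians were 0.15 for identity genes and 0.04 for reference genes, so both medians were smaller once brightness was followed. In the other lists the loess median is what was left once brightness was followed. Within the identity list Ccr2, the chemokine receptor of monocytes, was lower, at 807 units in WT and 490 in DKO cells, and 258 and 121 with LPS. Without LPS, dimmer probe sets of Ccr2 read 195 and 134, 116 and 63.0, and 99.4 and 99.6 units, the last with no difference. Lysosome genes had a median of 0.24 (0.14 after loess), and their median was -0.02 in the pair with LPS. They held 1 gene past 2-fold, Ctsk, the collagen-degrading cathepsin K, lower at 1096 and 514 units.

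**Figure D2:**
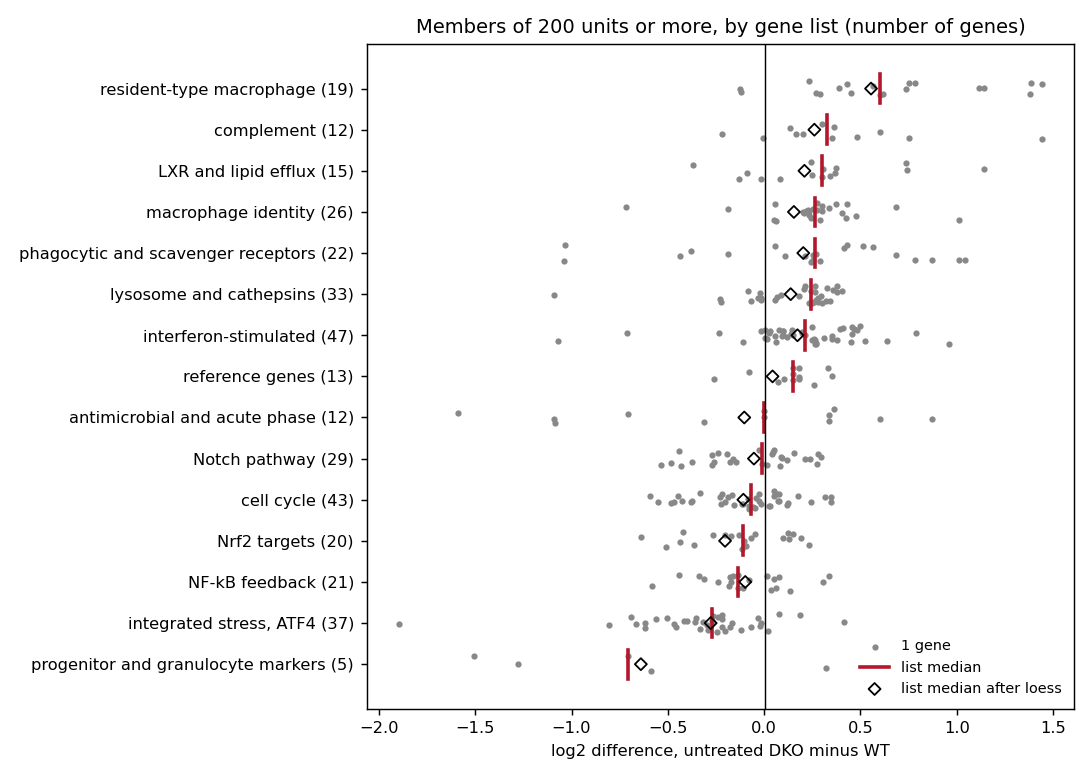
Each grey point is 1 counted gene, in rows by gene list with the number of genes in brackets, and the axis gives the log2 difference, untreated DKO minus WT. Red bars are list medians and open diamonds the medians after cyclic loess, and the resident-type macrophage list at 0.60 and the integrated stress list at -0.27 lie to either side of the median of all counted genes (black line).

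Genes of the integrated stress response were lower in DKO cells. In this pathway shortage of amino acids or other stress raises the transcription factor ATF4, which switches on amino acid import, synthesis and tRNA charging. Of 37 counted members 33 were lower and 4 higher, where 4257 of all 8664 counted genes were lower. By 1.5-fold 6 were lower and by 2-fold 1, and the list median was -0.27 (-0.28 after loess). With array medians set equal it was -0.06, where all counted genes stood at 0.22. In the pair with LPS 32 of 37 were lower, where 58.6% of all counted genes were. The list median there was -0.29, against -0.04 for all counted genes. This list too was chosen with earlier results of these data known, and it holds Trib3, so its values are a description only.

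Trib3, a pseudokinase induced by ATF4 that feeds back on it, read 612 units in WT and 164 in DKO cells, and 524 and 202 with LPS. Both WT arrays lay well above both DKO arrays. The difference was 3.73-fold without LPS and 2.59-fold with it, and a second probe set read 445 and 120 units (3.70-fold lower). Ddit3, which encodes the stress transcription factor CHOP, read 2960 and 1831 units (1.62-fold lower), and 2711 and 1359 with LPS. The amino acid transporter genes Slc7a5, at 300 and 171 units (1.75-fold lower), and Slc7a1, at 788 and 513 (1.54-fold lower), went the same way. So did Herpud1, a factor of protein disposal at the endoplasmic reticulum, at 1597 and 1007 (1.59-fold lower), and the proline synthesis gene Aldh18a1, at 1410 and 919 (1.53-fold lower).

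Smaller differences in the same direction were seen in Asns, the asparagine synthetase, at 2508 and 1766 units (1.42-fold lower), the stress sensor gene Sesn2, at 627 and 425, and Mthfd2 of mitochondrial folate metabolism, at 1920 and 1388. Atf4 itself read 4787 and 3904 units (1.23-fold lower) by its brightest probe set. A second probe set of Atf4 read 3560 and 1898 units (1.88-fold lower), and 2959 and 2940 with LPS, so the size of its difference is uncertain. Atf3, a related factor, was the member farthest the other way, at 5307 and 7063 units (1.33-fold higher). Chaperones and other genes of the unfolded protein response in the endoplasmic reticulum were 9 higher and 10 lower of 19. By its brightest probe set none passed 1.5-fold, and the median was -0.08 (-0.13 after loess). In the LPS pair 12 of 19 were lower, with a median of -0.12. Some dimmer probe sets passed 1.5-fold, such as those of Hyou1 at 291 and 185 units (1.57-fold lower) and Dnajc3 at 805 and 530 (1.52-fold lower). Hspa5 turned from 0.16 to -0.29 by the median of its probe sets.

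Chac1, an ATF4 target that degrades glutathione, had a mean under 200 units and was not counted. It read 204 units in WT and 65 in DKO cells (3.14-fold lower), and 486 and 401 with LPS. Its promoter window, chr2:119350992-119351241 (plus strand, RefSeq, GRCm38.p6), is shown because it holds the letters of an amino acid response element (TGATGNAA), the site of ATF4 with its partners, as TTGCATCA on the opposite strand starting 193 bases before the start, and a class C site at 142 bases; capitals mark both.
Chac1: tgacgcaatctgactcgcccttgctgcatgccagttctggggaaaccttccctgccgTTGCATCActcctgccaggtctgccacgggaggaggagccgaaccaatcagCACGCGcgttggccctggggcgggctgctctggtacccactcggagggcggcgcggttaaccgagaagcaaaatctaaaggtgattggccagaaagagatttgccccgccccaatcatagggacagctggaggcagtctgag
The amino acid response element was in 3.45% of all windows, in 2.41% of counted genes, in 1 of the 19 higher and in 3 of the 36 lower genes with a window. The windows of Trib3 and Gsta3 held none of the 4 motifs, which says only that these letters are not in those 250 bases.

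Gsta3, a glutathione transferase, had the largest difference among lower genes. It read 454 units in WT and 96.8 in DKO cells (4.70-fold lower), and 459 and 110 with LPS, and a second probe set read 204 and 54.4 units. The other 14 counted glutathione transferases stayed within 1.5-fold by their brightest probe sets, 9 of the 15 being higher and 6 lower with a median of 0.02. Gstm2, under 200 units in its mean, read 157 and 70.3 units. Targets of the antioxidant factor Nrf2 were lower in 14 of 20, with a median of -0.11, or 0.10 with array medians set equal, where all counted genes stood at 0.22. Nqo1, a quinone reductase, was the 1 past 1.5-fold by its brightest probe set, at 827 and 531 units (1.56-fold lower), and 930 and 586 with LPS.

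Spint1, a membrane inhibitor of serine proteases, read 494 units in WT and 118 in DKO cells (4.20-fold lower), and 297 and 70.9 with LPS (4.19-fold lower). Cdk5rap1, an enzyme that modifies tRNA in mitochondria, read 1074 and 351 units (3.06-fold lower), and 776 and 240 with LPS. Serpinb9b, a protease inhibitor, read 801 and 270 units (2.97-fold lower), and 852 and 325 with LPS. These 3 genes were apart by a similar amount in both pairs of arrays.

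The same was seen for Pam, which amidates secreted peptides, at 804 and 287 units (2.80-fold lower) and 860 and 292 with LPS, and for Ccr1, a receptor for inflammatory chemokines, at 1096 and 393 (2.79-fold lower) and 822 and 282 with LPS. Eef1a2, a translation elongation factor, read 718 and 272 units (2.63-fold lower), and 603 and 261 with LPS. Ptger3, a prostaglandin E2 receptor, read 924 and 343 units (2.70-fold lower), and 445 and 233 with LPS, where the difference was 1.91-fold. The growth factor receptor gene Fgfr1 read 595 and 241 units (2.46-fold lower), and 400 and 138 with LPS.

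**Figure D3:**
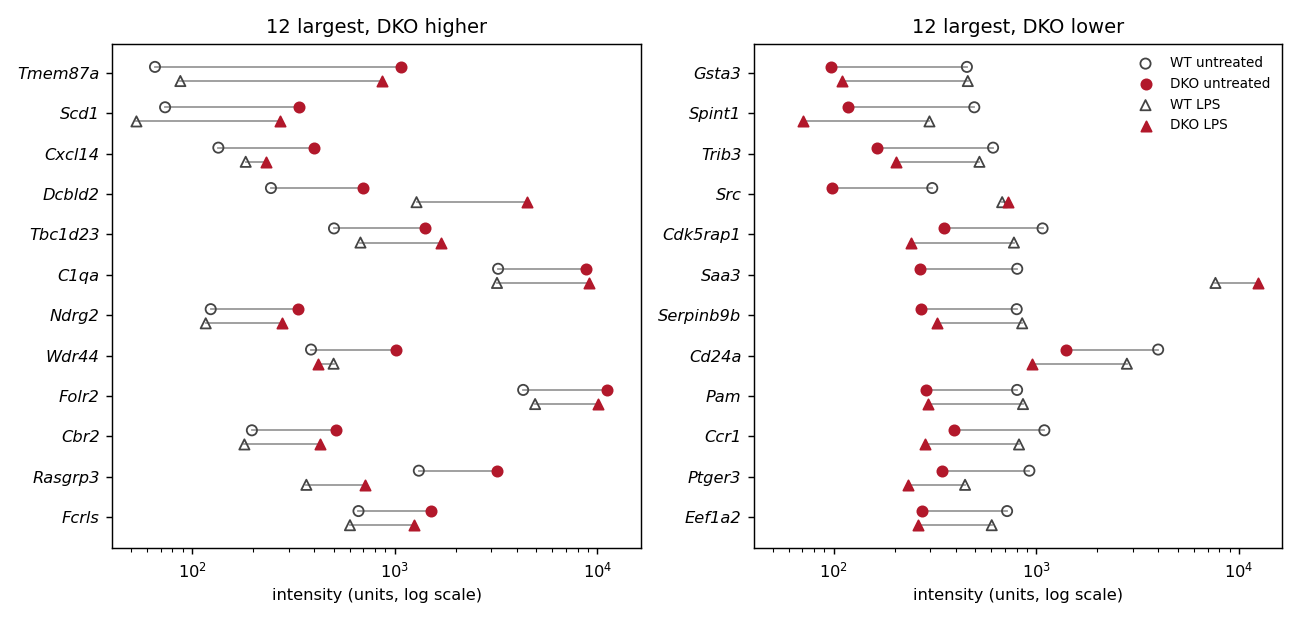
Levels of the 12 genes with the largest differences in each direction are drawn on a log axis of intensity, with circles for untreated and triangles for LPS arrays, open for WT and filled for DKO, and lines joining the 2 genotypes of 1 treatment. C1qa and Trib3 keep their order in both treatments, while Wdr44, Src and Saa3 do not.

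Markers of progenitors and granulocytes were mostly too dim to compare. Of 19 measured markers 13 were under the floor on both arrays, among them the granule genes Mpo, Elane, Prtn3 and Ctsg. Of the 5 counted, 4 were lower by 1.5-fold and 2 by 2-fold. Cd24a, a small glycoprotein of many immature and myeloid cells, read 3995 units in WT and 1405 in DKO cells (2.84-fold lower), and 2800 and 954 with LPS. Its 2 further probe sets read 1880 and 775 units, and 1018 and 319. Cd34, a sialomucin of progenitors, read 876 and 361 units (2.42-fold lower), and 552 and 229 with LPS.

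The calcium-binding protein gene S100a8 read 463 and 284 units and the collagenase gene Mmp8 1612 and 1072, while Sox4 was higher, at 711 and 888. Kit, a progenitor receptor, was near the same level at 161 and 155 units. The summed level of the list was lower in DKO cells with LPS as well, at 3040 units against 5597 in WT. The granule genes that define neutrophil precursors were at or under the floor, so the sum rests on Cd24a, Mmp8, Cd34 and Sox4. Osteoclast markers, a further cell type that marrow macrophages can form, summed to 5222 and 4425 units, and the part of either cell type in the results above was not tested.

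Several of the lower genes, picked here after their values were seen and not as a fixed list, read far higher with LPS. Saa3, an acute phase protein gene, read 805 units in WT and 268 in DKO cells (3.01-fold lower). With LPS it read 7661 and 12486 units, so the order turned. Src, a tyrosine kinase, read 307 and 98.2 units (3.12-fold lower), and came close together at 679 and 723 with LPS. Ehd1, a protein of endosome recycling, read 732 and 338 units (2.17-fold lower), and 7279 and 9554 with LPS, and 3 further probe sets of it were each lower in untreated DKO cells.

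Acod1, which makes itaconate, read 405 and 191 units (2.12-fold lower), and 21438 and 23589 with LPS. The chemokine gene Cxcl10 read 541 and 257 units (2.10-fold lower), and 11634 and 13796 with LPS. Plaur, the urokinase receptor, read 872 and 409 units, and 2095 and 1774 with LPS, and the collagenase gene Mmp13 1227 and 541, and 3768 and 3104 with LPS. In each of these 4 genes the 2 genotypes were within 1.5-fold of each other once LPS had been given.

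Of the 46 lower genes, 10 were at least 2-fold higher with LPS than without it in WT cells, where 2.76% of all counted genes were. None of the 10 was 2-fold lower in DKO cells with LPS, and their median difference there was -0.07. Of the 30 lower genes within 2-fold of their untreated level, 15 were 2-fold lower with LPS too, with a median of -0.996. The 6 that were at least 2-fold lower with LPS in WT cells (3.12% of all counted genes were) had a median of 0.06 in the LPS pair, and none was 2-fold lower there. All 3 groups use the untreated WT array, which also chose the genes, so they are descriptions. Below the 200-unit mean, Socs3, a cytokine signalling inhibitor, read 196 units in WT and 38.6 in DKO cells, at least 3.70-fold lower, and 5341 and 6288 with LPS. Another probe set of Socs3 read 146 and 81.9 units, 1.79-fold lower. A further probe set of Socs3 was under the floor on both untreated arrays, although it read 4181 and 4832 units with LPS. The resting difference of Socs3 is therefore uncertain. Htra1, also under 200 units in its mean, read 224 units in WT and 50.2, under the floor, in DKO cells, at least 4.22-fold lower. With LPS it read 390.5 and 246 units. Another probe set of Htra1 was under the floor on both untreated arrays.

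The lists of inflammatory genes showed no such lower level as a whole. Of 17 counted cytokines and chemokines 11 were higher, with a median of 0.18. Ccl3 read 943 and 1757 units (1.86-fold higher), Ccl6 2441 and 3998 (1.64-fold higher) and Ccl4 1131 and 1705, while Cxcl2 read 237 and 175 and Il1rn, the interleukin 1 receptor antagonist, 964 and 653. NF-kB feedback genes were lower in 13 of 21, with none past 1.5-fold by its brightest probe set and a median of -0.14. That median turned to 0.01 over all genes counted at a 500-unit minimum. With array medians set equal it was 0.08, under the 0.22 of all genes. With LPS 17 of 21 were higher, where 41.3% of all counted genes were, with a median of 0.19. Of 12 antimicrobial and acute phase genes 3 were 2-fold lower, Saa3, Plaur and Acod1, while 5 were higher and 7 lower by any amount.

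Interferon-stimulated genes leaned higher. Of 47 counted members 42 were higher in DKO cells, where 4407 of all 8664 counted genes were. The list median was 0.21 (0.17 after loess). In the pair with LPS 43 were higher, where 41.3% of all counted genes were, with a median of 0.24. At 1.5-fold 3 were higher: Zbp1, a sensor of nucleic acids, as given above, the transcription factor gene Irf7, at 2484 and 4286 units, and Ifit2, at 2431 and 3787. With LPS these read 676 and 1093, 2529 and 3818, and 3414 and 5083. Lower by 1.5-fold were Cxcl10 and Ifi204, the latter at 1347 and 823 units. Mx2, an antiviral GTPase gene under 200 units in its mean, read 21.5 units in WT, under the floor, and 116 in DKO cells, at least 2.18-fold higher.

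Where both arrays read a gene above the floor by a second probe set, that reading gave a check within the same RNA. Over 4711 such genes both readings were a median of 0.20 apart on the log2 scale and 72 genes were more than 1 apart. Of the 23 higher genes 9 had one, and 8 of these were higher by it as well, against 43.9% of all second probe sets; 5 passed 1.5-fold, against 2.29%. Of the 46 lower genes 19 had one, and 18 were lower by it, against 56.1%, with 12 past 1.5-fold, against 5.88%. Both readings come from the same RNA and array, so they are not replicates.

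For 11 genes the second probe set fell short of 1.5-fold or went the other way, so their call rests on 1 probe set. Wdr44 read 386 and 1015 units by its brightest probe set and 356 and 376 by the other. Cxcl14, a chemokine gene, read 135 and 400 by one and 164 and 186 by the other. Siglec1 read 129 and 124 by its second probe set. Among lower genes, Pik3cd, a kinase subunit, read 14716 and 7031 units by its brightest probe set and 997 and 1088 by the next, and the proteasome gene Psmc4 4341 and 2076 against 2205 and 1913. Gpank1 (454 and 454 units), Nptx1 (234 and 209), Tbc1d9 (122 and 112), Rnpc3 (302 and 243) and Fubp1 (209 and 163) likewise fell short on their second probe set. H1f2, given above, was the last of the 11, at 1.49-fold.

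Taking both brightest probe sets together, 20 genes were at least 1.5-fold higher by each and 40 at least 1.5-fold lower by each, out of 4970 genes with 2. Beyond those described, the higher ones included Kitl, the ligand of Kit, at 846 and 1630 units (1.93-fold, though another, dimmer probe set read 136 and 146), the RNA-binding protein gene Zfp36l1, at 1941 and 3453 (1.78-fold), and Prkcb, a protein kinase C, at 2468 and 3872. The lower ones included Pdgfa, a growth factor, at 1732 and 1041 units, Ang, a ribonuclease, at 3171 and 2099, and Sla, an adaptor that restrains receptor signalling, at 563 and 299. In the LPS pair 19 of the 20 and 37 of the 40 went the same way.

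**Figure D4:**
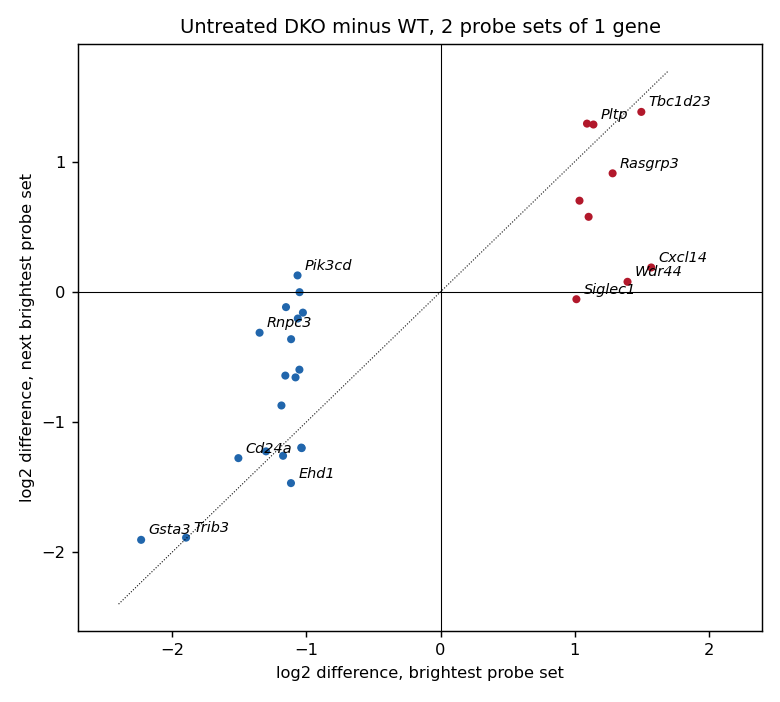
For each gene past 2-fold that both untreated arrays read above the floor by a second probe set, the log2 difference by the brightest probe set is set against that by the next, with equality dotted, higher genes red and lower genes blue. Trib3, Gsta3, Pltp and Tbc1d23 lie near the line, while Wdr44, Cxcl14, Siglec1 and Pik3cd lie near 0 on the second reading.

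The pair of arrays with LPS shares no array with the untreated pair and gave a second look at genotype, though treatment differs and it is no replicate. In it 29 counted genes were 2-fold higher in DKO cells (0.335%) and 52 lower (0.6%). Of the 23 genes higher at rest 22 were higher with LPS, where 41.3% of all counted genes were, and 13 passed 2-fold. Wdr44 was the exception, at 499 units in WT and 420 in DKO cells with LPS. The median difference of the 23 was 1.28 without LPS and 1.05 with it.

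Of the 46 genes lower at rest, 33 were lower with LPS, where 58.6% of all counted genes were, and 15 passed 2-fold, among them Gsta3, Spint1, Trib3, Cdk5rap1, Cd24a, Cd34, Ccr1 and Ctsk. Their median was -1.16 without LPS and -0.51 with it. The 13 that were not lower with LPS were Saa3, Src, Ehd1, Acod1, Cxcl10, Pik3cd, Psmc4, Rnpc3, Mrm1, Dnase2a, Gpank1, Kcnh3 and Zhx2. Among them Rnpc3, a splicing factor gene, read 581 and 228 units without LPS and 286 and 474 with it.

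**Figure D5:**
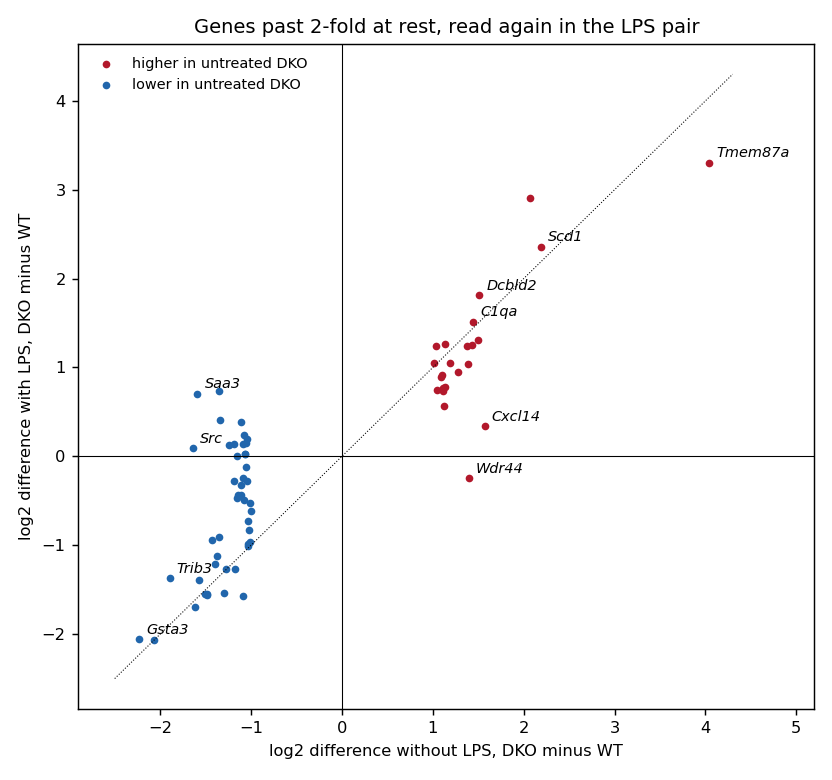
Each of the 69 genes past 2-fold at rest is placed by its log2 difference, DKO minus WT, without LPS and with LPS, with equality dotted. Red points, higher at rest, lie above 0 with LPS except Wdr44, and blue points spread from Spint1 at -2.07 to Rnpc3 at 0.73.

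By chromosome, 14 of the 69 genes past 2-fold (20.3%) were on chromosome 2, which held 8.18% of the counted genes. They were 6 higher genes (Fcna, Gpr176, Pltp, Plxdc2, Siglec1 and Tmem87a) and 8 lower ones (AA467197, Cdk5rap1, Eef1a2, Pmepa1, Procr, Spint1, Src and Trib3). Chromosome 16, which carries Hes1, held 3 of the 69 (Dcbld2, Tbc1d23 and Cd200), or 4.35%, against 3.08% of the counted genes. Chromosome 3, which carries Hey1, held 7, or 10.1%, against 4.85%.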

How the data were processed

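Total RNA was amplified and labelled with biotin, per the labels' protocols, and read on 4 mouse expression arrays of 45101 probe sets. The deposited values are linear intensities, 1 for each probe set on an array. With 2% trimmed at either end every array averaged 500.0, so the authors had scaled the intensities; their software is not given in the sources used. Of the probe sets 64 were controls and left out, 34945 named 1 gene in the platform table, 932 several and 9160 none. Symbols were updated by Entrez identifier through RefSeq (GRCm38.p6) for 34741, and 204 kept theirs.

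The brightest probe set over all arrays stood for a gene. Values below the pooled median, 52.9 units, were raised to it ahead of log2. A gene with only 1 array over this floor has a bound ("at least"). With 1 array per group, genes were counted at a fixed fold and no comparison was tested. The counting was tested on simulated data. The rule for named genes took the 12 largest differences in each direction, and bounds with at least 200 units on the brighter array. Htra1 was the only such bound. The rule also took genes with 2 probe sets past 1.5-fold, and per list the 4 largest members and any past 2-fold. Unnamed transcripts and genes with a contrary probe set were left out of the 12. Other genes were named after their values were seen. The comparison, the members and the 31 lists (756 of 814 entries measured) were chosen with earlier results of these data known.

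As alternatives, array medians were made equal, quantile normalization or cyclic loess applied, the floor moved or replaced by an offset of 16 units, a gene read by its median probe set, shared probe sets dropped, the brightness minimum set at 100 or 500 units or removed, and the threshold set at 1.5-fold or 3-fold. Python 3.11.15 (numpy 2.4.6, pandas 2.3.3) and limma 3.58.1 in R 4.3.3 were used.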

Additional observations from a re-analysis of the deposited data

How the results depend on the processing

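Against 23 genes higher and 46 lower in untreated DKO cells, of which 22 and 33 kept their direction in the LPS pair, the counts were as follows. Equal array medians gave 47 and 17, with 41 and 14 in the same direction in the LPS pair, since they shift the median of all genes to 0.22. A brightness minimum of 100 units gave 40 and 86 (34 and 58 in the same direction), no minimum 53 and 112 (46 and 76), and 500 units 16 and 25 (20 of the lower in the same direction), as more or fewer genes are counted. A threshold of 1.5-fold gave 137 and 200 (114 and 154), and 3-fold 3 and 6 (3 and 4). Quantile normalization gave 24 and 39, cyclic loess 23 and 37, and the other floors, the offset and the choices of probe set 20 to 23 and 38 to 46. Of 573 counted genes that were past 2-fold, named by the rule or members of a list, 101 turned direction with equal array medians, 31 after quantile normalization, 33 after loess, 40 by the median of their probe sets and 25 of 487 with shared probe sets left out. Of the 69 past 2-fold, Pik3cd turned by the median of its probe sets (0.13) and H1f2 with shared probe sets left out (-0.04). Relative to all genes, 319 list medians stayed close to their value and 17 moved; lists near 0 crossed it, among them the antimicrobial list (0.33 with shared probe sets left out) and the NF-kB feedback list (0.01 at the 500-unit minimum). For 44 rule-named genes past 2-fold, 359 readings stayed past the threshold and 32 fell short, the cause of which was not tested; 36 more fell short of 3-fold because the bar was higher.

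No paired analysis was possible because each group has 1 array. Leaving out a replicate was not possible for the same reason. Signal over background limits what dim genes show: of probe sets with a mean under the floor 44.4% differed past 2-fold, against 1.57% between 200 and 500 units.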

Other observations

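Other pathways showed smaller differences between untreated DKO and WT cells. Of 43 counted cell cycle genes 28 were lower, where 4257 of all 8664 counted genes were. Their median was -0.07, or 0.14 with array medians set equal, where all genes stood at 0.22. In the LPS pair 34 of 43 were lower, where 58.6% of all counted genes were, with a median of -0.16. The cyclin gene Ccne2 was the 1 past 1.5-fold by its brightest probe set, at 1457 units in WT against 968 in DKO cells. For 18 genes of iron and haem metabolism, 12 were lower, with a median of -0.15. Cpox, a haem synthesis enzyme, read 602 and 319 units (1.89-fold lower), and 258 and 78.3 with LPS (3.30-fold lower). Slc40a1, the iron exporter, went the other way at 2370 and 3280 units, but its order turned with LPS, at 1486 and 1075.

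In the Notch pathway none of 29 counted genes passed 1.5-fold by its brightest probe set, with 14 higher and 15 lower. The receptor gene Notch1 read 1380 and 1024 units, the ligand gene Jag1 452 and 323, and Hes6, a relative of Hes1, 784 and 963. Some dimmer probe sets did pass 1.5-fold. One of Notch1 read 879 and 537 units (1.64-fold lower) and one of Rbpj 374.5 and 218 (1.72-fold lower). One of Numb read 77.6 and 123 units (1.59-fold higher). Glycolysis and hypoxia genes split 11 to 12 and antigen presentation genes 9 to 9, with none past 1.5-fold by its brightest probe set. Dimmer probe sets of H2-K1 passed it both ways, at 2604 and 5050 units (1.94-fold higher) and 1446 and 958 (1.51-fold lower). Of 21 immediate early genes 2 were past 1.5-fold and higher. Of 10 counted genes of alternative activation 3 were past 1.5-fold, all higher: Folr2, Mrc1 and Egr2. The transcription factor gene Egr2 read 245 and 384 units, and 190 and 224 by a second probe set, short of 1.5-fold. Arg1, Retnla and Chil3, the usual markers of alternative activation, were under the floor on both arrays.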
